A study of Mus musculus with 8 samples.

Results

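The DEAD box (Ddx) and DEAH box (Dhx) RNA helicases were examined in haematopoietic stem cells of the mouse fetal liver that had or lacked ADAR1. Members were the genes whose symbol in the array annotation is Ddx or Dhx followed by a number, without Ddx58, Dhx58, Ddx60 and Dhx38, and each was read from the brightest of the probe sets that name it alone. This gave 47 genes, 33 Ddx and 14 Dhx, of the 18193 genes with a probe set of their own. The cells were sorted as lineage-negative, Sca-positive and Kit-positive, and the RNA of each of the 8 Affymetrix arrays came from 1 C57/B6 mouse. By genotype, 2 arrays were wild type, 3 carried 1 functional ADAR1 allele (+/-, heterozygous) and 3 carried none (-/-, null), and the wild-type and heterozygous arrays together are called the 5 controls. The sources used here give no age of the fetuses, and they do not say which part of the gene was removed or in which cells. ADAR1 deaminates adenosines of double-stranded RNA, and the comparison of null with control cells asks which helicase transcripts differ when it is missing.

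DEAD and DEAH box proteins are named after amino acids of the motif with which they bind and hydrolyse ATP. They use that energy to open short RNA duplexes or to strip proteins from RNA, and different members serve splicing, nuclear export, translation, ribosome assembly and RNA decay. Most act in every dividing cell, whereas a few belong to the germ line. ADAR1 acts on the double-stranded RNA that many of these enzymes can unwind, and the relatives left out here include sensors and effectors of the interferon response.

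Helicase transcripts were abundant in these cells on the scale of the array. Of the 47 members, 33 (70.2%) read above background on all 8 arrays, against 38.8% of the 18193 genes. Background on an array is the highest of 27 bacterial control probe sets, between 2.63 and 3.22 on the log2 scale, and all levels below are log2 intensities of 1 probe set. Because probe sets differ in brightness for equal amounts of RNA, levels are compared between arrays and not between genes. A mean above 9 over the 8 arrays was found for 14 members, among them Dhx9 (10.30), Ddx5 (10.18), Ddx39a (10.14), Ddx3x (9.99) and Ddx46 (9.78). Ddx4, the vasa helicase of germ cells, and Ddx43, which is also known from testis and tumours, were at background on every array. Another 12 members were at background on 1 array or more, and Ddx3y, the Y-linked counterpart of Ddx3x, has no probe set named here.

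**Figure D1:**
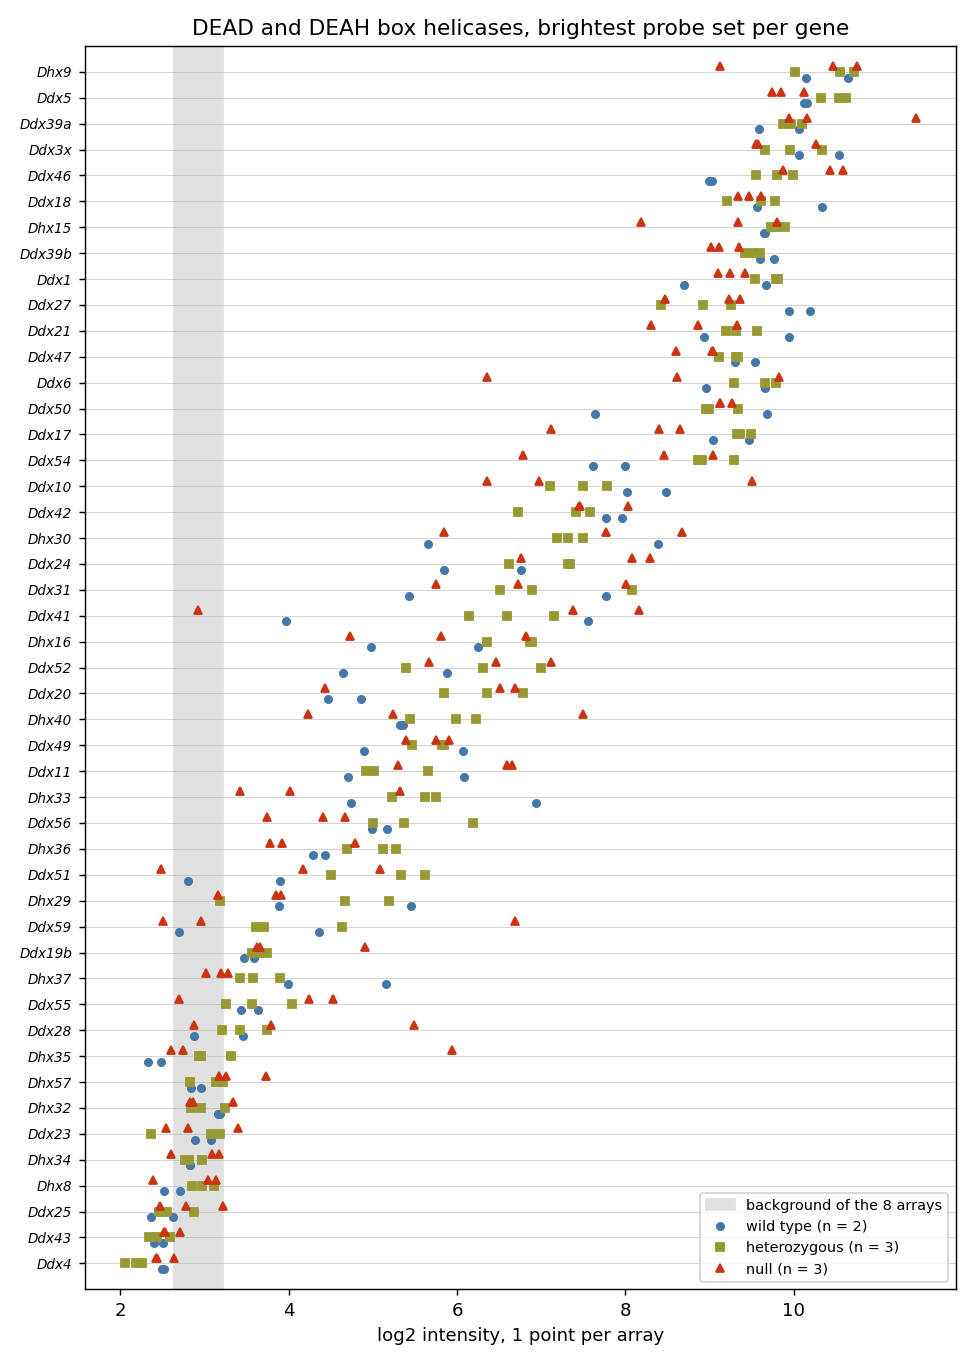
The log2 intensity of the brightest probe set of each of the 47 helicases, with genes ordered by their mean over the 8 arrays and 1 point per array (circles wild type, squares heterozygous, triangles null). The grey band marks the range of the background of the 8 arrays, 2.63 to 3.22. For most genes the null and control points are not fully separated, though often some null points lie outside the control range. For Ddx41, Ddx59 and Ddx6 the null points are widely spread.

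The arrays differed in ways that bear on all of these values. The share of tested probe sets above background was 45.6% to 61.2% on control arrays and 40.0% to 46.4% on null arrays. The ratio of 3′ to 5′ Gapdh intensity was 4.39 and 4.32 on wild-type, 5.78, 4.78 and 9.0 on heterozygous and 7.45, 8.73 and 7.67 on null arrays. Among the controls only heterozygous array 3 was not below all null arrays. The part of this ratio in the helicase values was not tested. Heterozygous arrays 1 and 3 and null array 1 had a male pattern of Xist and Eif2s3y. The summed linear intensity of 11 macrophage markers was 154 to 685 on control and 71.2 to 85.0 on null arrays, with Adgre1, Vsig4 and Cd5l at background on all arrays. That of 8 hepatocyte and hepatoblast markers was 207 to 1108 against 67.2 to 88.5. For 7 erythroid markers it was 906 to 1634 against 708 to 812, so these 3 sums did not overlap. In null minus all controls 7 macrophage markers read below 0 and 4 above, and all 8 hepatocyte markers below. The 5 mast markers, 0 of them above background on all arrays, summed to 33.4 to 38.87 and, higher in null, 38.91 to 45.1. The 8 endothelial and stromal markers overlapped at 242 to 406 and 393 to 787, with 7 above 0 and 1 below. Only 1 of the 7 erythroid markers, Ermap, lay below all controls without overlap. Its log2 level was 8.67 to 9.53 on control and 5.16, 7.36 and 6.59 on null arrays. In null minus all controls 5 of the 7 read below 0 and 2 above, with a median of -0.14 log2 units. The 14 measured stem and progenitor markers summed to 1304 to 1631 and 1109 to 1914, with Procr and Gfi1 at background on all arrays and Kit, used in the sort, at a log2 level of only 3.22 to 4.55. The part of these other cell types in the helicase values was not tested. In bulk RNA, fewer cells of a type and less RNA per cell cannot be told apart.

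None of the 47 helicases passed the threshold in any comparison, a count that leaves out the 4 relatives outside the rule, all of which passed in null minus all controls (values below). With limma and p adjusted over all 45037 tested probe sets (threshold 0.05), 0 of 47 members differed between null and wild type, null and heterozygous, heterozygous and wild type, or null and all controls, where 0.326%, 0.502%, 0.00222% and 0.582% of all probe sets did. On the brightest probe sets of the 18193 genes, 71 were higher and 23 lower, 83 and 57, 0 and 0, and 101 and 69. With so few genes called, a count of 0 among 47 does not set the helicases apart. The lowest adjusted p of a member was 0.163 (Ddx46), 0.246 (Ddx5), 0.891 (shared by several, Ddx46 and Ddx27 among them) and 0.194 (Ddx17) in these 4 comparisons. At an unadjusted p under 0.05, 2 members read higher and 5 lower in null than in wild type, against 3.37% and 5.91% of all genes. In null against heterozygous 1 read higher and 5 lower (all genes 5.12% and 7.88%). Heterozygous differed from wild type in 2 upward and 3 downward (3.0% and 2.9%). Null against all controls gave 1 higher and 6 lower (5.51% and 7.98%). Over the genes with a mean above background (defined below) the shares were 5.73% higher and 10.6% lower, 4.6% and 15.1%, 5.52% and 2.43%, and 5.86% and 15.5% in the same order. The 38 members among those genes gave 2 higher and 5 lower, 0 and 5, 2 and 2, and 1 and 6. Ddx4, at background on every array and not among the 38, was the member that read higher in null than in heterozygous. It was also 1 of the 3 lower in heterozygous than in wild type. The comparisons with null share the 3 null arrays, so their values below are set side by side and are not separate evidence.

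How large a difference could have been missed is shown by the intervals. The standard error of a member's difference between null and wild type ran from 0.140 to 1.68 log2 units with a median of 0.431, and against all controls from 0.109 to 1.28 with a median of 0.331. The 95% interval of the difference lay within 1 log2 unit on both sides of 0 for 13 members in null minus wild type, 15 in null minus heterozygous and 16 in null minus all controls. Among those 16, Ddx1, Ddx3x, Ddx5, Ddx18, Ddx39b and Ddx47 are brightly expressed, whereas Ddx4, Ddx23, Ddx25, Ddx43, Dhx8, Dhx32, Dhx34 and Dhx57 lie near background, where intensity hardly follows the amount of RNA. For the other 31 members a change of at least 2-fold in one direction or the other lies inside the interval.

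Differences among the 47 helicases were centred near 0, as were those of all genes. Their median was 0.13 log2 units in null minus wild type, -0.06 in null minus heterozygous, 0.15 in heterozygous minus wild type and -0.07 in null minus all controls, and the medians of all 18193 genes were -0.00, 0.06, -0.05 and 0.03. Many of those genes are at background, so the 38 members whose mean over the 8 arrays exceeded the highest array background were also set beside the 8987 genes that did so. The 38 had medians of 0.12, -0.32, 0.25 and -0.24, and the 8987 had -0.15, -0.28, 0.11 and -0.24. In null minus wild type these medians were thus of opposite sign, with 47.4% of the 38 and 58.6% of the 8987 below 0. Among the 47, 26 read above 0 and 21 below in null minus wild type, and 21 above and 26 below in null minus heterozygous. The null mean lay below both control means for 16 members, above both for 16 and between them for the rest.

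**Figure D2:**
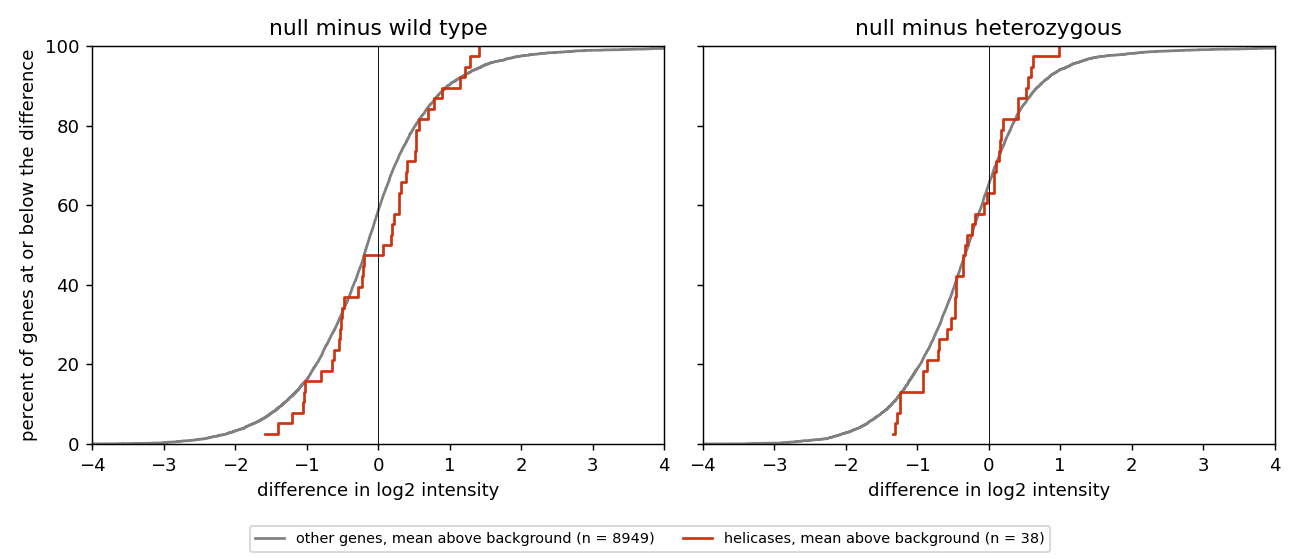
Cumulative percent of genes (vertical axis) at or below a given difference in log2 intensity (horizontal axis, shown from -4 to 4) for the 38 helicases with a mean above background (red) and the other 8949 such genes (grey), for null minus wild type (left) and null minus heterozygous (right). The red and grey curves run close together against heterozygous, and the helicase medians are 0.12 and -0.32. The medians of all 8987 such genes, helicases included, are -0.15 and -0.28. Against wild type the red curve ends at the members' own extremes, -1.59 (Dhx33) and 1.41 (Ddx24). The 4 relatives outside the rule are not in the red curves, and they differ from wild type by 4.09 (Ddx58), 4.37 (Dhx58), 4.78 (Ddx60) and -3.30 (Dhx38).

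Splicing helicases drive the rearrangements of the spliceosome, and 8 were measured. Of these, 0 passed with limma in any comparison, and the median of their null minus control differences was 0.01 log2 units with 4 above 0 and 4 below. Ddx46 (the counterpart of yeast Prp5, which helps the U2 particle bind the branch point) had the smallest unadjusted p of all members against wild type. Its brightest probe set read 9.0 and 9.03 in wild type, 9.99, 9.55 and 9.80 in heterozygous and 10.59, 9.87 and 10.43 in null cells. Both wild-type arrays were therefore the lowest of the 8, and the heterozygous and null ranges overlapped. Null exceeded wild type by 1.28 ± 0.24 log2 units (SE; 2.43-fold, limma unadjusted p = 0.00135, adjusted p = 0.163) and heterozygous by 0.52 ± 0.22 (adjusted p = 0.442). Heterozygous exceeded wild type by 0.76 ± 0.24 (adjusted p = 0.891).

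The other probe sets of Ddx46 went the opposite way. All 5 of its probe sets were above background on every array, and the 4 dimmer ones read lower in null than in control cells, with differences of -1.47, -0.51, -0.86 and -1.32 log2 units, against 0.82 for the brightest. The first of the 4 read 7.29 and 6.57 in wild type, 6.92, 6.79 and 6.41 in heterozygous and 4.41, 5.82 and 5.76 in null cells, without overlap (limma, adjusted p = 0.167 against all controls). The last of them gave 4.40 and 4.38, then 5.64, 5.27 and 5.68, then 4.52, 3.06 and 3.69. It had the lowest adjusted p of any of the 103 probe sets of the family in null minus heterozygous, 0.140. The direction of Ddx46 as a gene is thus not settled by these arrays. Which parts of the transcript the probe sets cover was not analysed here.

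Dhx15, which releases the spliced intron and also serves the ribosome, read 9.65 and 9.66 in wild type, 9.74, 9.79 and 9.89 in heterozygous and 9.34, 9.80 and 8.19 in null cells. Null arrays 1 and 3 were below every control and null array 2 was among them, for a difference from all controls of -0.63 ± 0.32 (limma, adjusted p = 0.501). Dhx35, found in spliceosomes at the time of catalysis, had the highest null minus control difference of the family, 0.95 ± 0.74. That value rests on 1 array, since Dhx35 read 5.94 on null array 2, 2.74 and 2.60 on the other null arrays and 2.33 to 3.32 on the controls, close to background. The other 5 splicing members, Ddx23, Ddx41, Ddx42, Dhx8 and Dhx16, differed from all controls by -0.48 to 0.16. Their standard errors ran from 0.21 (Dhx8) to 1.28 (Ddx41), and Ddx23 and Dhx8 were above background on only 4 arrays each. Of the 8 splicing members 4 were above background on all arrays, so the median of the group includes values near background.

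Of the helicases of mRNA export, which remodel messenger ribonucleoproteins on the way to and through the nuclear pore, 3 were measured. Ddx39b (UAP56, a core component of the TREX export complex) read 9.60 and 9.77 in wild type, 9.53, 9.42 and 9.60 in heterozygous and 9.34, 9.02 and 9.11 in null cells. All 3 null arrays were below all 5 controls, by a small margin. The difference was -0.53 ± 0.15 log2 units from wild type, -0.36 ± 0.14 from heterozygous and -0.43 ± 0.13 from all controls (1.34-fold lower), and none of them passed (limma, adjusted p = 0.419, 0.412 and 0.265). A further Ddx39b probe set of the same brightness read 9.91, 9.71 and 8.42 in null cells and 8.62 to 9.88 in controls, so the groups overlapped there. Its near-identical relative Ddx39a read 9.59 and 10.06, then 10.10, 9.97 and 9.87, then 9.95, 11.45 and 10.16, with null array 2 above all others. On that array 3 of the 5 Ddx39a probe sets read 11.29 to 11.49, while another bright one read 9.16. That other probe set read 8.95, 9.16 and 9.25 in null cells and 9.26 to 9.70 in controls, without overlap. Its difference from all controls was -0.34 ± 0.14 (limma, adjusted p = 0.409), against 0.60 for the brightest, so the direction of Ddx39a is not settled. Ddx19b, which releases mRNA at the cytoplasmic face of the pore, differed from all controls by 0.46 ± 0.29 (limma, adjusted p = 0.572). That value rests on null array 3, since Ddx19b read 3.62, 3.66 and 4.91 in null cells and 3.47 to 3.74 in controls, not far above background. The other Ddx19b probe sets differed from all controls by 0.12 and -0.22, so its direction is not settled.

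Translation initiation was represented by Ddx3x and Dhx29, which help the small ribosomal subunit through structured leaders. Ddx3x read 10.06 and 10.54 in wild type, 9.96, 10.33 and 9.65 in heterozygous and 9.58, 10.26 and 9.55 in null cells. The groups overlapped, with a null minus control difference of -0.31 ± 0.25 and a 95% interval of -0.89 to 0.26. All 3 Ddx3x probe sets read lower in null cells. The dimmer one of 9.59 to 10.04 in controls was at 8.98, 9.24 and 9.51 in null cells, without overlap, at -0.67 ± 0.17 (limma, adjusted p = 0.172). Ddx3x lies on the X chromosome, and on the brightest probe set the arrays of male pattern read 9.96, 9.65 and 9.58. Those of female pattern read 10.06, 10.54, 10.33, 10.26 and 9.55, the last on null array 3. Both wild-type arrays were of female pattern. Dhx29 read 5.45 and 3.88, then 5.19, 4.67 and 3.19, then 3.85, 3.16 and 3.91, so its controls spanned more than the null arrays did.

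The largest group, 16 helicases, belongs to the nucleolus, where most of them free ribosomal RNA from small nucleolar RNAs or assembly factors. With limma 0 of 16 passed in any comparison. In null minus all controls 11 of them (68.8%) read below 0 with a median of -0.28. All genes with a mean above background had 63.7% below 0 and a median of -0.24. In null minus wild type 8 read above 0 and 8 below. The null arrays lay below all controls for 3 of these 16, Ddx47, Ddx56 and Dhx37.

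Ddx47, needed for early cleavage of the ribosomal precursor, read 9.30 and 9.55 in wild type, 9.33, 9.32 and 9.12 in heterozygous and 9.03, 8.61 and 9.04 in null cells. Null minus all controls was -0.43 ± 0.15 log2 units (limma, unadjusted p = 0.0219, adjusted p = 0.346). A dimmer Ddx47 probe set differed by 0.15. On the brightest, the gap between the lowest control and the highest null array was less than 1 SD of either group. Ddx56, a nucleolar helicase of the large subunit, read 5.16 and 4.99, then 6.19, 5.37 and 5.0, then 4.41, 3.74 and 4.67. Its difference was -1.07 ± 0.33 against all controls (2.10-fold lower, limma adjusted p = 0.281), -1.24 ± 0.36 against heterozygous and -0.80 ± 0.40 against wild type.

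Dhx37, which frees the U3 small nucleolar RNA from the small subunit precursor, read 5.15 and 3.99 in wild type, 3.90, 3.42 and 3.58 in heterozygous and 3.28, 3.02 and 3.2 in null cells. Wild type was highest and the null arrays were lowest, the latter just above background. The difference was -1.40 ± 0.34 against wild type (limma, unadjusted p = 0.00482, adjusted p = 0.294) and -0.47 ± 0.30 against heterozygous. Dhx33, a further nucleolar DEAH protein, had the lowest null minus wild type difference of the family at -1.59 ± 0.75. Its wild-type arrays were themselves far apart at 4.74 and 6.94, beside 5.23, 5.75 and 5.62 in heterozygous and 4.02, 5.33 and 3.43 in null cells (limma, adjusted p = 0.705). The other Dhx33 probe set, near background, differed from all controls by 0.25.

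Ddx24 read above and Ddx27 below wild type, and both are factors of the large ribosomal subunit. Ddx24 read 6.76 and 5.84 in wild type, 7.32, 7.34 and 6.62 in heterozygous and 8.30, 8.08 and 6.76 in null cells, with null array 3 among the controls. It exceeded wild type by 1.41 ± 0.53, the highest value of the family (limma, adjusted p = 0.581), and heterozygous by 0.62 ± 0.47. Ddx27 read 9.94 and 10.19 in wild type and lower on all other arrays, 8.43, 8.92 and 9.26 in heterozygous and 9.36, 8.47 and 9.23 in null cells. Heterozygous minus wild type was -1.20 ± 0.34 (limma, unadjusted p = 0.0108, adjusted p = 0.891), the lowest value of that comparison, and null minus wild type was -1.05 ± 0.34. Null and heterozygous differed by 0.15, with a 95% interval of -0.58 to 0.88. The other 10 nucleolar members differed from all controls by -0.56 to 0.57.

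Among helicases of transcription and nuclear RNA complexes, Ddx5 (p68) and Ddx17 (p72) are paralogues that act as coregulators of transcription, splicing and microRNA processing. Ddx17 read 9.47 and 9.04 in wild type, 9.33, 9.49 and 9.36 in heterozygous and 8.39, 8.65 and 7.12 in null cells. All null arrays lay below all controls, with null array 3 lowest. Null minus all controls was -1.28 ± 0.33 log2 units (2.44-fold lower, 95% interval -2.05 to -0.52, limma unadjusted p = 0.00488, adjusted p = 0.194). The difference was -1.20 ± 0.44 against wild type and -1.34 ± 0.39 against heterozygous (adjusted p = 0.564 and 0.305). The other Ddx17 probe sets differed from all controls by -0.76 and -0.56. On the former null array 1 was among the controls, and on the latter all 3 null arrays were, at 8.84, 8.39 and 8.09 beside 7.51 to 9.83, where null minus wild type was 0.23. Without null array 3 the difference on the brightest was -0.82 (adjusted p = 0.108), over alternatives whose adjusted p ran from 0.0761 to 0.408.

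Ddx5 read 10.12 and 10.15 in wild type, 10.62, 10.32 and 10.54 in heterozygous and 9.85, 10.13 and 9.74 in null cells. The null arrays were below all heterozygous ones and reached into the wild-type values. The difference was -0.59 ± 0.15 against heterozygous (limma, unadjusted p = 0.00682, adjusted p = 0.246) and -0.23 ± 0.17 against wild type. Of its 6 probe sets 5 read lower in null than in control cells, with differences of -0.08 to -0.99. Dhx9 (RNA helicase A), which unwinds long duplexes and binds the inverted repeats that ADAR1 edits, read 10.14 and 10.64, then 10.02, 10.72 and 10.55, then 10.47, 9.13 and 10.76. Null array 3 was just above all controls, null array 1 was among them and null array 2 was below all, for a difference of -0.30 ± 0.37 (95% interval -1.16 to 0.56). The other bright Dhx9 probe set differed from all controls by 0.02. Ddx20 (gemin 3, of the SMN complex) read 4.86 and 4.47 in wild type, 6.78, 5.85 and 6.36 in heterozygous and 6.51, 6.69 and 4.43 in null cells. It was higher in heterozygous than in wild type by 1.67 ± 0.68 (limma, adjusted p = 0.891), without overlap of those 5 arrays.

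Ddx6, the helicase of processing bodies that represses and decaps mRNA, read 9.66 and 8.96 in wild type, 9.79, 9.29 and 9.66 in heterozygous and 6.36, 9.83 and 8.62 in null cells. The null arrays thus held both the lowest and the highest value, and the difference of -1.20 ± 0.68 from all controls did not pass (limma, adjusted p = 0.536). The next brightest Ddx6 probe set differed by -0.07. Dhx36, which unwinds G-quadruplexes, read 4.29 and 4.43, then 5.27, 5.12 and 4.69, then 3.78, 4.78 and 3.93. Null minus heterozygous was -0.86 ± 0.30 (limma, adjusted p = 0.372) and null minus wild type -0.20 ± 0.33. Against all controls its 3 probe sets gave -0.60, -0.64 and 0.43. Dhx34, which acts in nonsense-mediated decay, stayed at 2.61 to 3.18 on all 8 arrays.

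The mitochondrial members Dhx30 and Ddx28, both needed for the mitochondrial ribosome, read 0.22 ± 0.75 and 0.71 ± 0.53 above all controls. Dhx30 varied within every group but heterozygous, at 8.39 and 5.66 in wild type, 7.49, 7.31 and 7.19 in heterozygous and 8.67, 5.85 and 7.76 in null cells. The other 3 Dhx30 probe sets read lower in null than in control cells, by differences of -0.22, -1.86 and -0.18. The second of them had an unadjusted p of 0.0221 (limma, adjusted p = 0.348), so the direction of Dhx30 is not settled. Ddx28 read 5.49 on null array 3 and 2.87 to 3.79 on the other arrays. The germ line members Ddx4, Ddx25 and Ddx43 read 2.05 to 3.22 throughout. Ddx11, a DNA helicase of sister chromatid cohesion, read 4.70 and 6.08, then 4.92, 5.66 and 5.01, then 5.30, 6.59 and 6.65. It was higher than in all controls by 0.91 ± 0.42 (limma, adjusted p = 0.467), with null array 1 among the controls. The other Ddx11 probe set, above background on 7 arrays, differed the opposite way, by -0.65. Of the 4 members with no role assigned here, Dhx57 differed most, by 0.39 ± 0.17 (limma, adjusted p = 0.434) at 3.17 to 3.73 in null cells, near background.

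**Figure D3:**
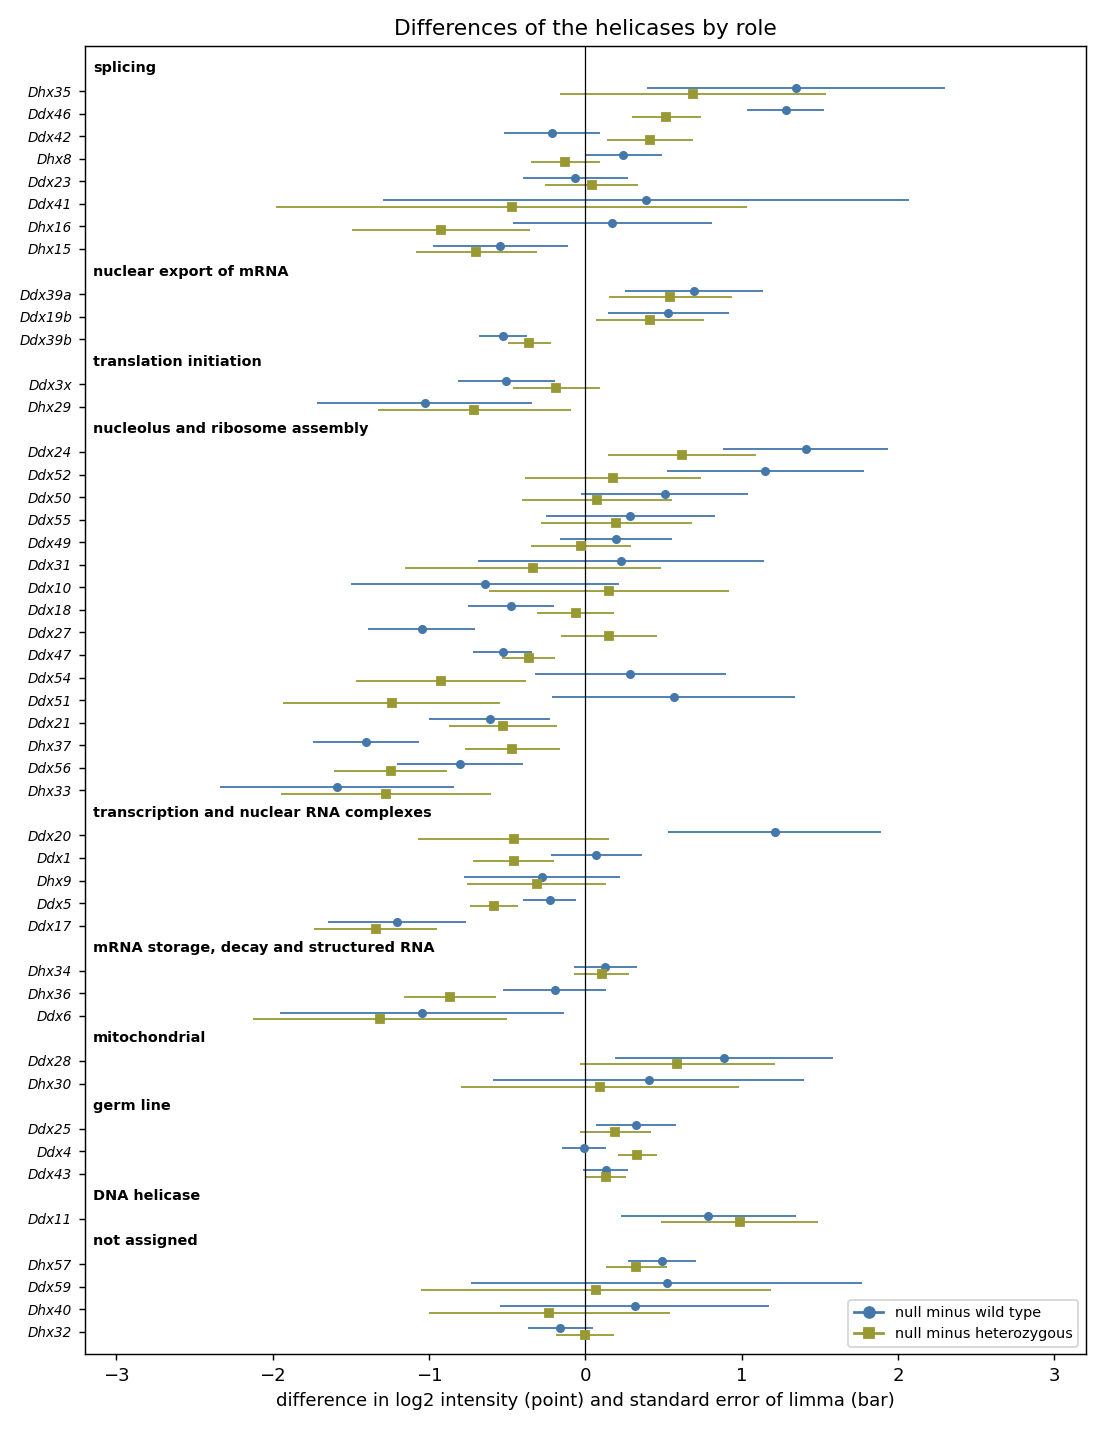
Difference in log2 intensity of each helicase (point) with the standard error from limma (bar) for null minus wild type (circles) and null minus heterozygous (squares), grouped by role. Both sets of values share the 3 null arrays; they run from -1.59 (Dhx33) to 1.41 (Ddx24), and no member passes an adjusted p of 0.05.

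Without regard to size, the 3 null arrays lay below all 5 controls for 5 members (Ddx17, Ddx39b, Ddx47, Ddx56 and Dhx37) and above them for 0. Over all genes the shares were 4.95% and 4.19%, and over the genes with a mean above background, where the 5 members also fall, 9.17% and 3.68%. Read against that background, the count of 5 among 38 such members is near the share of all such genes.

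Replicate spread was wider among null arrays than among controls, for helicases as for other genes. The 3 null arrays ranged over more than 2 log2 units for 13 members, the heterozygous for 1 and the wild-type for 5. These are 27.7%, 2.13% and 10.6% of the 47, beside 15.9%, 1.81% and 4.99% of all genes. With a mean above background the shares were 31.6%, 2.63% and 13.2% of the 38 members and 30.7%, 3.29% and 9.58% of the 8987 genes. The wild-type range is taken over 2 arrays and the others over 3, so the groups are not alike in this count. The median SD of the 38 members with a mean above background was 0.788 in null, 0.298 in heterozygous and 0.381 in wild-type cells, and that of the 8987 genes was 0.725, 0.300 and 0.409. Ddx41, a splicing factor also known as a DNA sensor and chosen here after its values were seen, had the widest null range, 5.24, with 8.16, 7.38 and 2.92 on the null arrays. Its wild-type arrays were also far apart, at 7.55 and 3.97. The lowest of the 3 null values fell on null array 1 for 4 of the 13, on array 2 for 3 and on array 3 for 6, so no single array held them all.

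Probe sets of the same gene were a second measure of each helicase. The 47 members have 103 probe sets, 17 genes with 1 and 30 with several. Of those 30, the probe sets of 15 gave null minus control differences of 1 sign and those of the other 15 did not. Among the 103, 0 passed with limma in any comparison. Ddx17, Ddx3x, Ddx18 and Ddx54 (the last 2 named after their values were seen) each read lower on 3 of 3 probe sets. The brightest probe sets of Ddx17, Ddx39a, Ddx54, Dhx30 and Dhx32 carry the suffix with which the manufacturer marks probes that may also match other transcripts, so their values may include RNA of other genes. Those of Ddx31 and Dhx57 carry the suffix _s_at, for probe sets shared by several transcripts.

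**Figure D4:**
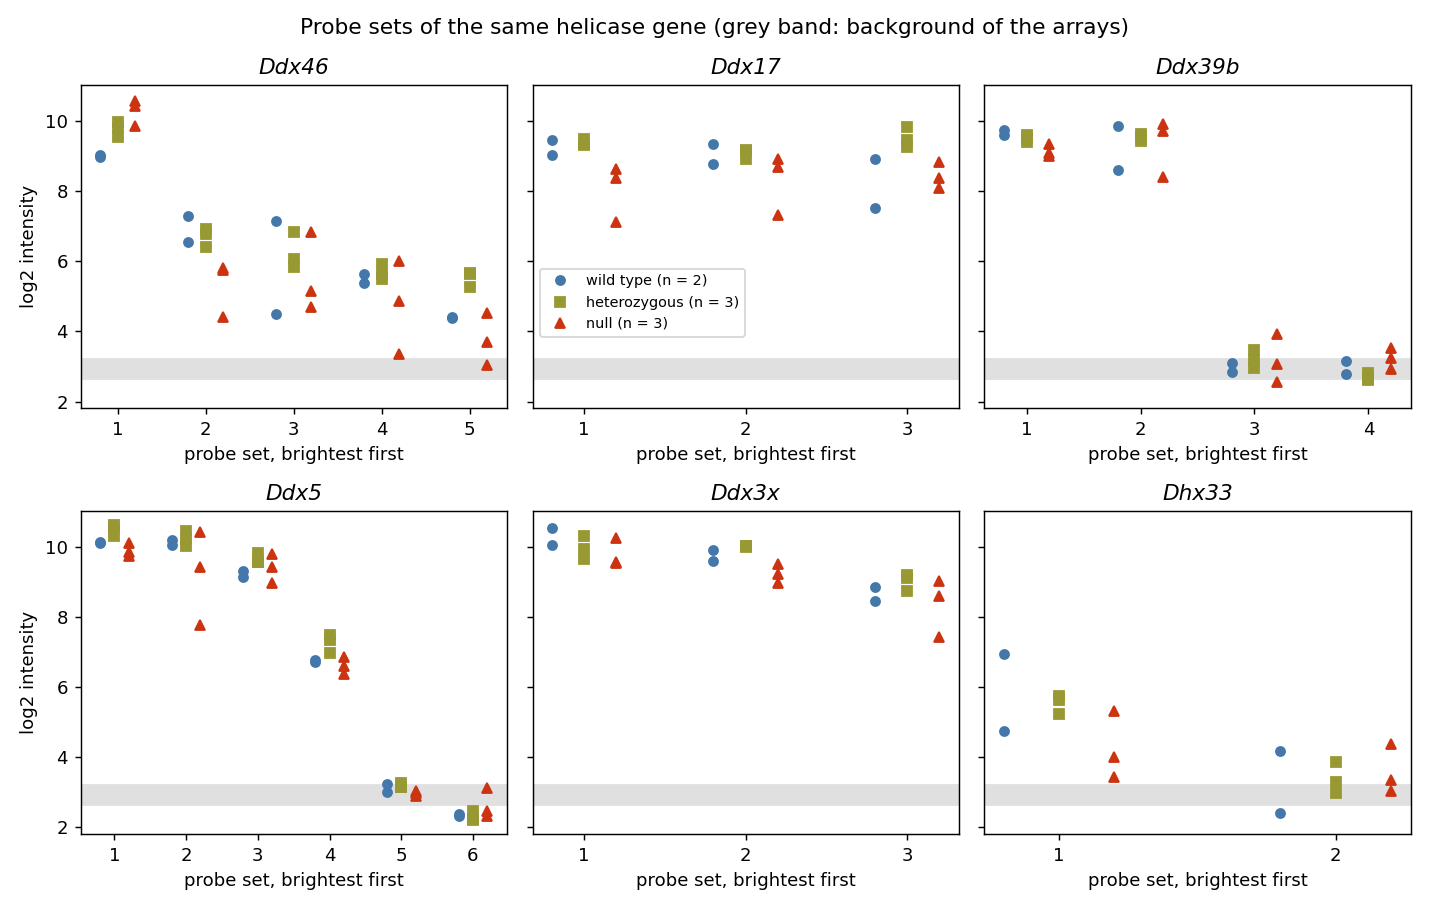
Log2 intensity on each array for all probe sets of 6 helicases, ordered from the brightest (1) to the dimmest, with the grey band at the background of the arrays. In Ddx46 the null points (triangles) are high on probe set 1 and low on probe set 2, whereas in Ddx17 and Ddx3x the null mean is below the control mean on all 3.

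The 4 relatives that the rule leaves out all passed in null minus all controls, so the count of 0 calls holds for the 47 members and not for the family as a whole. Ddx58 (RIG-I), a sensor of viral RNA, had a mean of 3.76 in controls and 7.96 in null cells (limma, adjusted p = 0.00767). Dhx58 (LGP2), its regulator, read 2.41 and 6.82, with all controls at background (limma, adjusted p = 0.000548). Ddx60, an interferon-induced helicase, read 2.66 and 7.40 (limma, adjusted p = 0.000619), and the splicing helicase Dhx38 read 8.31 and 5.65 (limma, adjusted p = 0.0416). Against single genotypes, Ddx58 did not pass in null minus wild type (limma, adjusted p = 0.0731). Dhx38 did not pass in null minus heterozygous (limma, adjusted p = 0.0578). Its heterozygous minus wild type difference was -1.06 (limma, adjusted p = 0.891). Dhx58 and Ddx60 passed against each genotype alone.

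Upstream sequence was also searched, since many interferon-induced genes carry the core of the interferon-stimulated response element, here GAAA followed by any 2 bases and GAAA again. RefSeq promoters (GRCm38.p6, 250 bases before to 50 after a start) were matched by symbol for 43 of 47 members, 54 promoters in all. Searched on both strands, the core was present in 2 of 54 (3.70%) and in 3.44% of all 32851 promoters. Both belong to Ddx49, start 19 bases apart and hold the same single site, so it is 1 site in 1 of 43 genes. The E-box CACGTG, which reads the same on both strands and is bound by Myc among others, was in 7 of 54 (13.0%) and in 7.15% of all promoters. The 7 belong to Ddx4, Ddx5, Ddx25, Ddx42, Dhx33, Dhx35 and Dhx40. A match describes letters only and does not show a binding site.

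The 250 bases before the start are shown for Ddx49, the member with the core (in capitals), for Ddx46, which had the smallest unadjusted p in null minus wild type, and for Ddx17 (the more upstream of its starts) and Ddx39b, which had the smallest in null minus all controls. Those of Ddx46, Ddx17 and Ddx39b hold neither motif, so they have no capitals. Sequences are from RefSeq on GRCm38.p6, 5′ to 3′ on the strand of the gene.
Ddx49, chr8:70302453-70302702, minus strand: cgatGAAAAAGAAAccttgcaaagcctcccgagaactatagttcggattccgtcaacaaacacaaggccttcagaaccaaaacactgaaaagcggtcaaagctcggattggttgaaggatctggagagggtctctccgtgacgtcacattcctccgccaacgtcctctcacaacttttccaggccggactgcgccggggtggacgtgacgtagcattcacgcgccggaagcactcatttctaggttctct
Ddx46, chr13:55634749-55634998, plus strand: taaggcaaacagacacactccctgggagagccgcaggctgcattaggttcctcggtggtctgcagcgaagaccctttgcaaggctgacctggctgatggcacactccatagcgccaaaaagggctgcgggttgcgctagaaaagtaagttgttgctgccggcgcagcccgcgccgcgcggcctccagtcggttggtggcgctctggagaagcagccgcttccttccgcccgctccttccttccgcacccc
Ddx17, chr15:79546742-79546991, minus strand: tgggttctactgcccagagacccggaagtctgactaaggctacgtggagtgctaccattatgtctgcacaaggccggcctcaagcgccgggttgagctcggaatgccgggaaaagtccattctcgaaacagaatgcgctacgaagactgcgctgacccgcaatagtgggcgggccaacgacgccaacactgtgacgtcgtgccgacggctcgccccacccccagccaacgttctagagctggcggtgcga
Ddx39b, chr17:35241496-35241745, plus strand: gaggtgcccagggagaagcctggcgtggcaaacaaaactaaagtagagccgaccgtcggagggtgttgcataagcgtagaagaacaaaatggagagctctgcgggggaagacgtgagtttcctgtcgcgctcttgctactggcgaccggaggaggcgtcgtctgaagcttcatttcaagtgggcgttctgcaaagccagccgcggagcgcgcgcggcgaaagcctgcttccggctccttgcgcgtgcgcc
Ddx49, named for its promoter and not for its values, works in the nucleolus and read 6.08 and 4.90 in wild type, 5.82, 5.47 and 5.85 in heterozygous and 5.75, 5.90 and 5.40 in null cells. The null arrays were within the range of the controls, and the difference was 0.06 ± 0.27 (95% interval -0.57 to 0.70).

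Partner genes of the helicases were read from lists of the machineries in which they work. Of 36 spliceosome genes, 42 ribosome assembly factors, 22 genes of the exon junction complex and mRNA export, 37 of mRNA decay and processing bodies and 19 other RNA helicases, 0 passed with limma in any of the 4 comparisons. In null minus all controls the unadjusted p was under 0.05 for 0 higher and 7 lower, 2 and 6, 0 and 4, 4 and 8, and 3 and 2 of them. Of all genes with a mean above background, 5.86% were higher and 15.5% lower at that p. The medians of that comparison were -0.13, -0.28, -0.53, -0.23 and -0.15, beside -0.24 for all genes with a mean above background. Ribosome assembly factors read below 0 in 36 of 42, with the assembly factor Nop16 lowest at -2.67, and spliceosome genes in 23 of 36, with the U2 subunit Sf3a2 lowest at -2.71. These shares are 85.7% and 63.9%, beside 63.7% of the genes with a mean above background and 45.9% of all genes. Below 0 were also 18 of 22 genes of the exon junction complex and mRNA export (81.8%). For mRNA decay it was 23 of 37 (62.2%), and for the other RNA helicases 10 of 19 (52.6%). Among the other RNA helicases, the antiviral helicase Mov10 was highest, at 5.27 and 2.41 in wild type, 4.10, 3.43 and 3.43 in heterozygous and 8.04, 5.84 and 5.95 in null cells. All null arrays exceeded all controls, by 2.88 ± 0.72 in the mean, and the difference did not pass (limma, adjusted p = 0.182). With the mean of the Mov10 probe sets it was 2.41 and passed (adjusted p = 0.0324), over alternatives from 0.0324 to 0.373.

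Activators of helicases, proteins with MIF4G or G-patch domains that switch on a DEAD or DEAH box partner, numbered 20, with a median of -0.24 and 1 call. Gle1, which activates Ddx19b at the nuclear pore, read 6.56 and 6.50 in wild type, 6.54, 6.90 and 6.99 in heterozygous and 4.09, 5.36 and 4.85 in null cells. It fell by 1.93 ± 0.28 log2 units in null against all controls (limma, adjusted p = 0.0302), where 0.379% of all genes were called lower. The call was absent against wild type (adjusted p = 0.193) and heterozygous (0.0683) alone. It was lost without any 1 of the 5 controls (adjusted p = 0.0572 to 0.0944) or without null array 3 (0.0646), with a trended, robust variance (0.101) and with the mean of its probe sets (-0.30, adjusted p = 0.620), over alternatives from 0.0127 to 0.620.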

How the data were processed

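Messenger RNA was measured on 8 arrays. The authors deposited linear intensity per probe set, summarised with RMA per the submitters' processing notes, which name no software version. Log2 was taken of the deposited intensity. Of 45101 probe sets, 64 controls were left out. The annotation names 1 gene for 34945 probe sets, several for 932 and none for 9160. Differences between single genotypes came from a 3-group linear model with 5 residual degrees of freedom, and null minus all controls from a 2-group model with 6. Both were fitted in limma 3.58.1 under R 4.3.3 with lmFit, eBayes and two-sided tests. Errors are limma standard errors, and the Benjamini-Hochberg adjustment ran over 45037 probe sets. The code was tested on simulated data. Depth has no meaning for arrays; their number limits precision, and p-values measure the spread between single mice.

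The members and lists were chosen with earlier results of these data known. Named with values were members past the threshold, the 10 of smallest unadjusted p in each comparison with null and 5 in heterozygous minus wild type, the 5 brightest, Ddx3x, Ddx3y, members without overlap of at least 1 log2 unit and the extremes of each role. Of a partner list the highest or lowest gene was named. Alternatives were quantile and cyclic loess normalization, a pseudocount of 32, a filter at the median level, the mean of probe sets, a trended robust variance, array weights, sex pattern as a covariate, the 2 groups alone and leaving out each array. No per-sample column was left unused (0).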

Additional observations from a re-analysis of the deposited data

How the results depend on the processing

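Members past the threshold stayed at 0 in all 4 comparisons under the alternatives, except for 1 (Ddx46) in null minus wild type without null array 2 (difference 1.49, limma adjusted p = 0.0479, over alternatives from 0.0479 to 0.721), a range of 0 to 1 when leaving out arrays. With the mean of its probe sets Ddx46 reversed to -0.39 in null minus wild type, -0.85 in null minus heterozygous and -0.67 in null minus all controls. Ddx39b turned to 0.012 against wild type with the mean of probe sets and to 0.0014 against heterozygous with cyclic loess, and Ddx47 against heterozygous to 0.0090 with cyclic loess and 0.011 with the mean of probe sets. The cause was not tested. The median of the members in null minus wild type (0.13) was 0.22 with cyclic loess, 0.047 with the pseudocount and -0.041 with the mean of probe sets, and -0.10 to 0.13 without single arrays. In null minus heterozygous (-0.06) it was 0.030 with quantile normalization and -0.21 with the filter, which tests fewer genes, and -0.18 to -0.061 without single arrays. In heterozygous minus wild type (0.15) it was 0.27 with the sex covariate, 0.069 with the pseudocount, 0.089 with quantile normalization and 0.15 to 0.17 without single arrays, and in null minus all controls (-0.07) 0.068 with cyclic loess and -0.14 to -0.01 without single arrays. Probe sets called in null minus wild type (147) were 62 with the pseudocount, 90 with array weights, 79 with the sex covariate, 4 with the 2 groups alone and 65 to 340 without single arrays. In null minus heterozygous (226) they were 126 with the pseudocount, 130 with the trended variance, 105 with the sex covariate and 63 to 581 without single arrays. In heterozygous minus wild type (1) they were 5 with the pseudocount, 0 with the filter, the sex covariate, the mean of probe sets or the 2 groups alone, and 0 to 164 without single arrays. In null minus all controls (262) they were 156 to 792 without single arrays. No paired analysis was possible because the labels give the groups no shared replicate numbers. Signal limits the 14 members at background on 1 array or more, whose differences may be understated.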
